A study of Homo sapiens with 39 samples.

Results

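JJN3 cells that had GSK-J4 for 1 h were compared directly with JJN3 cells that had ZnSO4 for 1 h. JJN3 is an established human multiple myeloma line, a cancer of antibody-secreting plasma cells. GSK-J4 is a cell-permeable small molecule known as an inhibitor of the KDM6 demethylases of histone H3 lysine 27, and ZnSO4 is a zinc salt. The comparison used 6 of the 39 RNA-seq libraries of the series, 3 of GSK-J4 at 1 h and 3 of ZnSO4 at 1 h, chosen by the running sample number in their column names, and all 14460 genes that passed the filter on low counts. The 3 DMSO (vehicle) libraries of 1 h place each group against DMSO, and the GSK-J4 and ZnSO4 libraries of 3 h carry the same comparison to the next time. The treatment labels do not say whether the ZnSO4 cells also received DMSO. All groups are cells of the same line grown in RPMI with 10% fetal calf serum, and the labels name no genetic change. The sources used here do not give the doses, so the comparison holds for the doses used and not for the compounds as such. Nothing in the labels says that replicates came from separate cultures, so the spread behind each p-value is that between libraries and may be technical.

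Zinc that enters a cell is met by MTF1, a transcription factor that senses free zinc and switches on the metallothioneins, small cysteine-rich proteins that bind the metal, and SLC30A1, which pumps it out of the cytosol. Zinc and other metals that react with protein thiols can also unfold proteins and start the heat shock response, in which HSF1 raises chaperone genes, and they can induce HMOX1, the heme-degrading enzyme used as a sign of oxidative and metal stress. GSK-J4 is studied in myeloma for its effects on the KDM6 enzymes. The direct comparison asks where the early RNA response to the compounds differs.

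At 1 h, 96 genes differed between GSK-J4 and ZnSO4, which is 0.664% of the genes tested (edgeR's quasi-likelihood test, Benjamini-Hochberg adjusted p under 0.05). Most were lower in GSK-J4, 76 genes or 0.526%, and 20 genes or 0.138% were higher. The differences on the lower side were also larger, with 24 genes lower by 2-fold or more and 1 gene higher by that much. Among the called genes far below zero in the plot of all genes are metallothioneins and the chaperones DNAJB1 and HSPA6, while the largest called rise was 1.03 on the log2 scale. The median log2 fold change (log2FC, GSK-J4 over ZnSO4) of all genes was 0.003, and 1338 genes had an unadjusted p under 0.05. In 93 of the 96 genes the 3 GSK-J4 libraries lay wholly on one side of the 3 ZnSO4 libraries. The calls were made on these same libraries, so this describes them and is no separate support. The share over all genes is not given here.

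**Figure D1:**
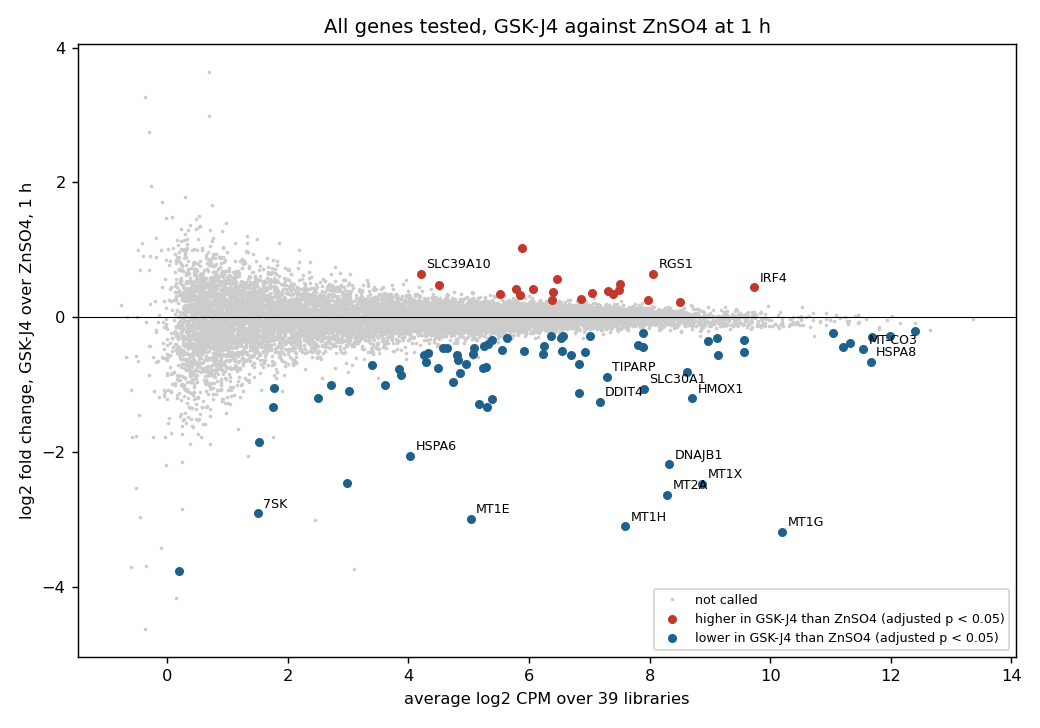
Log2 fold change of GSK-J4 over ZnSO4 at 1 h (y axis) against average log2 CPM over 39 libraries (x axis), 1 point per gene tested. Red points are the 20 genes called higher in GSK-J4 and blue points the 76 called lower. The metallothioneins MT1G, MT1H, MT1E, MT2A and MT1X are among the called genes furthest below zero.

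Levels below are CPM, counts scaled to a common library size and for library composition (TMM), and each log2FC stands with its standard error. In bulk samples a lower share of a transcript can come from fewer cells that hold it or from less of it per cell, and these cannot be told apart. The 6 libraries held 5275174 to 10695671 counts, the most in replicate 3 of ZnSO4. Plasma cell markers were all detected (9 of 9), with summed levels of 12406 to 13568 CPM in GSK-J4 and 12449 to 13388 CPM in ZnSO4. JCHAIN made up most of these sums, with 10290 to 11403 CPM in GSK-J4 and 10592 to 11498 CPM in ZnSO4. Of the 9, IRF4 and PRDM1 were called higher in GSK-J4. Of 25 markers of other cell types 13 stayed under 1 CPM in all 6 libraries, and their summed levels were 65.3 to 79.1 CPM in GSK-J4 and 72.5 to 91.6 CPM in ZnSO4, with EPCAM highest. Of the 10 that passed the filter none was called. Replicate 2 of ZnSO4 stood apart in 7 genes that were over 2 times as high there as in any other of the 6 libraries, among them the small nuclear RNA 7SK and the mitochondrial ribosomal RNA MT-RNR1. Of the 7, 4 were called lower in GSK-J4, 7SK (log2FC −2.90 ± 0.58), MT-RNR1 (−0.80 ± 0.15), ENSG00000239776 (−1.84 ± 0.41) and ENSG00000259001 (−3.76 ± 0.77), and all 4 calls end without that library. Without it, 80 genes are called.

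How far each call rests on 1 library was checked by leaving out each of the 6 in turn. Of the 96 genes 51 were called each time, and these same 51 were also called under each of the other 8 settings tried, 41 of them lower and 10 higher. The accounts below name these first.

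Promoters of 3 metal response genes and 2 chaperone genes are shown before their values, since metal response and heat shock elements are the textbook targets of MTF1 and HSF1. They were chosen with their matches known, so they do not stand for their groups. Of 150 genes called or named here, 103 had an entry in the RefSeq promoter table (GRCh38.p14), and the 250 bases before the start are printed 5′ to 3′ on the gene's own strand. In the first 3, capitals mark the core of the metal response element, TGCACNC or TGCGCNC, on either strand. MT1X lies at chr16:56682220-56682469 (plus strand), MT2A at chr16:56608334-56608583 (plus strand) and SLC30A1 at chr1:211579162-211579411 (minus strand).
MT1X: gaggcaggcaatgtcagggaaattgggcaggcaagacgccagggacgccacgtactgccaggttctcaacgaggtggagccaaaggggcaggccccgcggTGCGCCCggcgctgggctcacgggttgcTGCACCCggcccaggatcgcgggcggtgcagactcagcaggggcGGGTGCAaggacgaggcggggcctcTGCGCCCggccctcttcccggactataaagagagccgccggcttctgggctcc
MT2A: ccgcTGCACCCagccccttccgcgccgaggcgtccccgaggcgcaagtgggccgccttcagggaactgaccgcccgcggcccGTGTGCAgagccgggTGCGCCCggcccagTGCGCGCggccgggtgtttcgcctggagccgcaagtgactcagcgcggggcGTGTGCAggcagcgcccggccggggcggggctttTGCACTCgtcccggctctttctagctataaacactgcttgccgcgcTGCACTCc
SLC30A1: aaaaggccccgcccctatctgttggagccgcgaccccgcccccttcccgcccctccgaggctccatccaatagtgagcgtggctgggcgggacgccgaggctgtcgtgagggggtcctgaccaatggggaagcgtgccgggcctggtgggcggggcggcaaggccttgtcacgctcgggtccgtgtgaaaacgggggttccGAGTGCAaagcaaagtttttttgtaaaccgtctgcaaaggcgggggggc
MT1X had 4 matches that did not overlap, MT2A had 7 and SLC30A1 had 1. Among 27305 promoters of the table, 24.72% held at least 1 such match and 1.04% held 3 or more. In the next 2, capitals mark pairs of the heat shock repeat that face each other, GAANNTTC or TTCNNGAA, with overlapping matches run together. HSPA6 lies at chr1:161524290-161524539 (plus strand) and HSPA8 at chr11:123062137-123062386 (minus strand).
HSPA6: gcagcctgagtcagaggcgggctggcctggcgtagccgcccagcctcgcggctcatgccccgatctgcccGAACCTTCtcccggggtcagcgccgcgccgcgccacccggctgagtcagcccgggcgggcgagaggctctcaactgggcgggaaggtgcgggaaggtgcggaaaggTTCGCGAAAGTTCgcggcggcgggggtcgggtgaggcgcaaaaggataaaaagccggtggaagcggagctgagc
HSPA8: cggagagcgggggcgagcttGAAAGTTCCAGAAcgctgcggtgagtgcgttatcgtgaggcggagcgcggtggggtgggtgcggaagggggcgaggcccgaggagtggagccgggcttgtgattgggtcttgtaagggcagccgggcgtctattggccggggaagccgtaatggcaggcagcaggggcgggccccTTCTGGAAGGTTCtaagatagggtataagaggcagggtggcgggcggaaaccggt
HSPA6 and HSPA8 held 2 such stretches each. The other called chaperone genes held fewer, with 1 each for DNAJA1 and SERPINH1 and 0 for DNAJB1, BAG3, DNAJB4, HSP90AA1 and HSPE1. Among all promoters 11.75% held at least 1 and 0.96% held 2 or more. A match describes the letters and was not tested as a site.

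Metallothioneins were the group that differed most. Of 9 that passed the filter 6 were called lower in GSK-J4, and the median log2FC was −2.63, beside 0.003 over all genes. MT1X (ENSG00000187193) stood at 52.7, 57.3 and 49.6 CPM in the GSK-J4 libraries, at 265, 304 and 310.2 CPM in the ZnSO4 libraries and at 14.98, 6.49 and 9.53 CPM in DMSO. The groups were far apart, with GSK-J4 between ZnSO4 and DMSO, and the level in GSK-J4 was 0.181 times that in ZnSO4 (log2FC −2.46 ± 0.10, adjusted p = 8.42e-30). MT2A (ENSG00000125148) stood at 12.6, 12.2 and 16.05 CPM in GSK-J4, 70.1, 89.3 and 90.7 CPM in ZnSO4 and 5.89, 1.06 and 2.34 CPM in DMSO (log2FC −2.63 ± 0.15, adjusted p = 1.77e-21). MT1G (ENSG00000125144) showed the lowest ratio of the group, with 27.7, 26.7 and 27.7 CPM in GSK-J4 against 220.5, 246 and 273 CPM in ZnSO4 (log2FC −3.18 ± 0.19, adjusted p = 1.21e-20). In both genes the 3 GSK-J4 libraries lay close together and none came near the ZnSO4 range.

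MT1H and MT1E followed at lower levels. MT1H had 2.34, 4.33 and 2.29 CPM in GSK-J4 against 21.1, 29.6 and 26.7 CPM in ZnSO4 (log2FC −3.09 ± 0.23, adjusted p = 2.25e-16), and MT1E had 0.539, 1.55 and 0.983 CPM against 7.27, 7.81 and 9.43 CPM (log2FC −2.99 ± 0.36, adjusted p = 1.55e-08). MT1F reached at most 2.80 CPM in any library at 1 h. It was called (log2FC −2.45 ± 0.55, adjusted p = 0.00856), but not without replicate 1 of ZnSO4 (log2FC −2.20, adjusted p = 0.0651), replicate 1 of GSK-J4 (−2.20, adjusted p = 0.0988) or replicate 3 of GSK-J4 (−1.88, adjusted p = 0.185), all from edgeR's model across genes. MT1M, a further member, stood at 0.180, 0.155 and 0 CPM in GSK-J4 and 0.559, 1.78 and 0.840 CPM in ZnSO4 and did not pass (adjusted p = 0.0802). MT1B and MT1HL1 had no counts in GSK-J4 and counts in 1 ZnSO4 library each, so they carry no fold. Over the other 7 members the median is the value of MT1E. Metallothionein genes are near copies of one another, and how the authors' counting shared reads between them is not given in the sources used here, so the split between members is uncertain.

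Against DMSO, each compound has its own values for these genes, from the same 3 DMSO libraries. MT1X was higher than DMSO in both GSK-J4 (log2FC 2.34 ± 0.15, adjusted p = 5.78e-19) and ZnSO4 (log2FC 4.80 ± 0.12, adjusted p = 1.73e-40), and so was MT2A, with 2.06 ± 0.28 in GSK-J4 and 4.69 ± 0.19 in ZnSO4 (adjusted p = 1.64e-06 and 2.41e-29). MT1E and MT1H were called in ZnSO4 (adjusted p = 4.6e-13 and 6.24e-20) but not in GSK-J4 (adjusted p = 0.97 and 1), with 0.123, 0 and 0.360 CPM of MT1E and 3.68, 0.132 and 0.180 CPM of MT1H in DMSO. The missing GSK-J4 call of MT1H is uncertain, since only replicate 1 of DMSO reached the GSK-J4 range. For MT1E every GSK-J4 library lay above the DMSO libraries, at low levels. MT1G in DMSO depended on the library, at 20.6, 0.132 and 2.16 CPM. With all 3 it was higher in GSK-J4 by 1.70 ± 0.31 (adjusted p = 0.00117). That value was 4.76 without replicate 1 of DMSO, and it missed the threshold without replicate 2 (adjusted p = 0.0679) or replicate 3 (adjusted p = 0.0565). The excess in ZnSO4 over DMSO was 4.88 ± 0.23 for MT1G and 4.10 ± 0.26 for MT1H, and 7.93 and 7.24 without that first DMSO library.

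**Figure D2:**
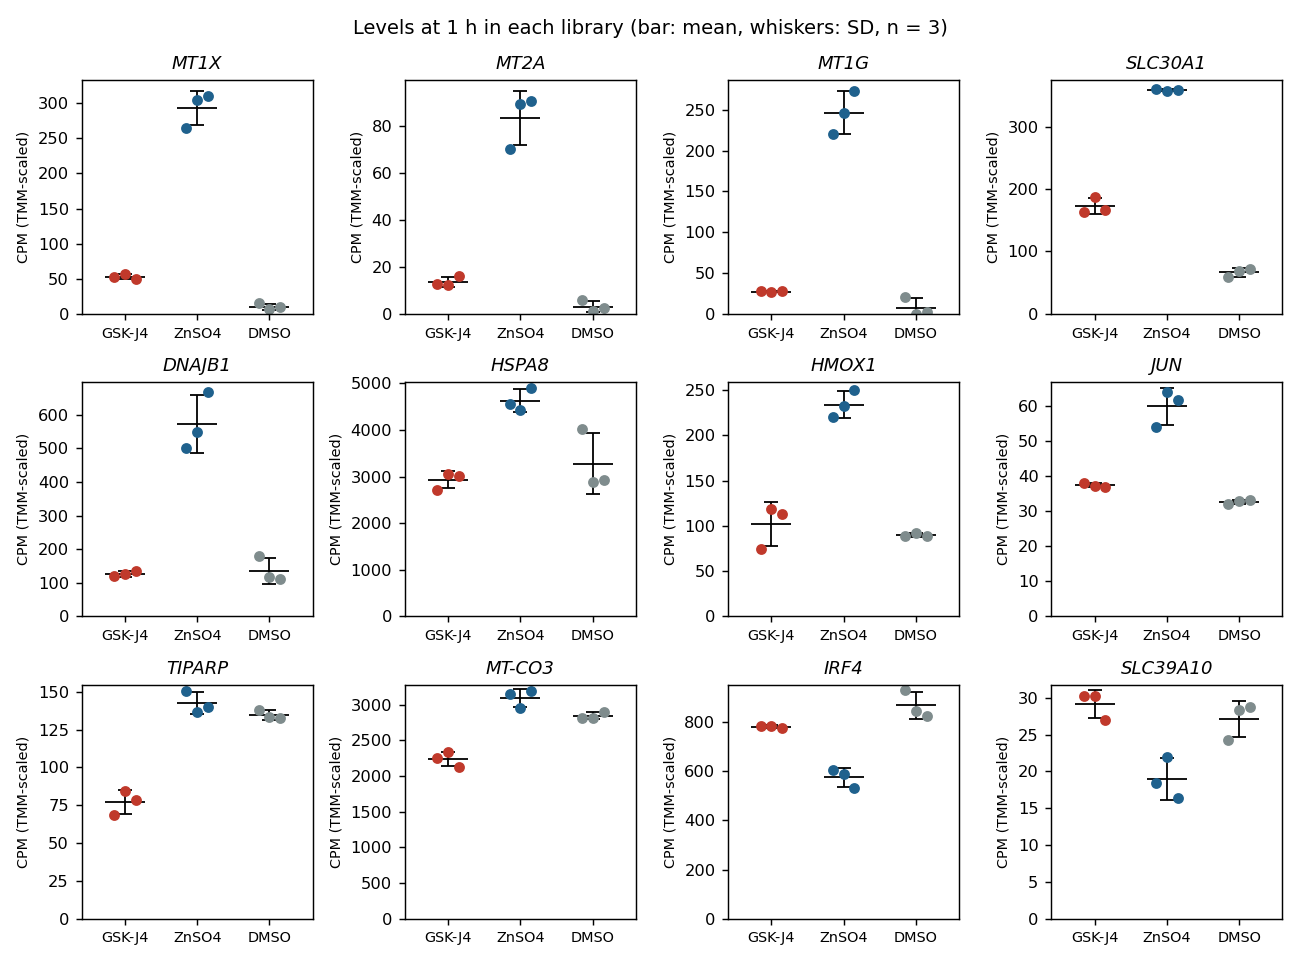
CPM of 12 genes at 1 h in each library of GSK-J4 (red), ZnSO4 (blue) and DMSO (grey), with the mean as a bar and the SD as whiskers, n = 3. For MT1X, MT2A and SLC30A1 GSK-J4 lies between ZnSO4 and DMSO, for DNAJB1 and HSPA8 it lies with DMSO, and for TIPARP and MT-CO3 it lies below both.

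Of the zinc transporters, 1 exporter and 1 importer differed. SLC30A1 (ENSG00000170385), the zinc exporter of the plasma membrane, stood at 163, 187 and 166 CPM in GSK-J4, 360.3, 358 and 358 CPM in ZnSO4 and 59.1, 68.4 and 72.5 CPM in DMSO. Its spread was narrow in every group, and it was lower in GSK-J4 than in ZnSO4 (log2FC −1.06 ± 0.067, adjusted p = 1.32e-19) and higher than in DMSO (log2FC 1.38 ± 0.077, adjusted p = 7.26e-22). The other 6 tested exporters of the SLC30 family were not called, and the list median was 0.006. SLC30A2, at 0 CPM in the 3 GSK-J4 libraries and 0.186, 0.533 and 0.280 CPM in ZnSO4, was too low to place (adjusted p = 0.303). SLC39A10 (ENSG00000196950), which brings zinc into the cytosol, was the 1 importer of 11 called, and it was higher in GSK-J4. It stood at 30.2, 30.3 and 27.02 CPM in GSK-J4, 18.5, 22.01 and 16.4 CPM in ZnSO4 and 24.3, 28.4 and 28.8 CPM in DMSO (log2FC 0.65 ± 0.11, adjusted p = 4.76e-05). The GSK-J4 libraries overlapped the DMSO range and the ZnSO4 libraries lay below it. The median of the SLC39 list was 0.046.

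Chaperone genes of the heat shock response formed the next group. Of 21 tested members 9 were lower in GSK-J4 than in ZnSO4 and none was higher, with a list median of −0.219. DNAJB1 (ENSG00000132002), a J-domain partner of HSP70, stood at 119, 125 and 136 CPM in GSK-J4, 500.4, 547 and 669 CPM in ZnSO4 and 181, 118 and 109.9 CPM in DMSO. The GSK-J4 level was 0.221 times the ZnSO4 level (log2FC −2.18 ± 0.17, adjusted p = 3.92e-16), and GSK-J4 did not differ from DMSO by the test (−0.12 ± 0.18, adjusted p = 1). HSPA6 (ENSG00000173110), an HSP70 that is nearly silent without stress, had 1.08, 3.25 and 4.91 CPM in GSK-J4 against 8.57, 11.2 and 16.99 CPM in ZnSO4 (log2FC −2.05 ± 0.33, adjusted p = 2.71e-05). HSPA8 (ENSG00000109971), the abundant constitutive HSP70, had 2721, 3065 and 3019 CPM in GSK-J4 against 4556, 4429.8 and 4911 CPM in ZnSO4 (log2FC −0.66 ± 0.091, adjusted p = 6.3e-07), and its copy HSPA8P1 was called as well, so reads may be shared. BAG3, a co-chaperone of HSP70, had 12.6, 12.2 and 13.1 CPM in GSK-J4, 26.1, 31.1 and 29.97 CPM in ZnSO4 and 20.01, 15.4 and 14.7 CPM in DMSO (log2FC −1.21 ± 0.19, adjusted p = 1.17e-05). No GSK-J4 library reached the ZnSO4 range in any of these 4 genes, although the DMSO libraries varied, with replicate 1 highest for DNAJB1, HSPA8 and BAG3.

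The remaining chaperone calls were smaller. DNAJA1 had a log2FC of −0.31 ± 0.059 and SERPINH1, the collagen chaperone, one of −0.50 ± 0.10, and both calls held in every setting. DNAJB4 (−0.83 ± 0.17), HSP90AA1 (−0.29 ± 0.071) and HSPE1 (−0.23 ± 0.061) were called with all libraries, and in 13, 10 and 6 of the 14 other settings. Without replicate 3 of ZnSO4 the list had 6 calls, with DNAJB4, HSP90AA1 and HSPE1 lost. HSP90AA1 and HSPE1 were also lost without replicate 1 or 3 of GSK-J4 and with DESeq2. HSPE1 was lost as well with RLE factors, library totals, no filter and only the groups compared. HSPH1, an HSP110, had 328, 383 and 354 CPM in GSK-J4 and 431, 391 and 418 CPM in ZnSO4 and did not pass (log2FC −0.22 ± 0.074, adjusted p = 0.247). HSPA1A and HSPA1B, the main inducible HSP70 genes, did not pass the filter on low counts. HSPA1A had 0 counts in all 6 libraries and HSPA1B 0 to 1 in GSK-J4 and 2 to 9 in ZnSO4. They are near-identical copies, so these counts are uncertain.

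HMOX1 (ENSG00000100292), the heme oxygenase gene, stood at 74.3, 118 and 113 CPM in GSK-J4, 219.9, 233 and 250.1 CPM in ZnSO4 and 88.5, 92.5 and 88.5 CPM in DMSO. The GSK-J4 libraries spread around the DMSO level and all lay below ZnSO4 (log2FC −1.20 ± 0.12, adjusted p = 1.88e-11). It was the only call among 20 tested NRF2 targets, the antioxidant genes to which it is often assigned, and that list's median was −0.051. GCLM, a subunit of the enzyme that starts glutathione synthesis, had 106, 119.6 and 127 CPM in GSK-J4 and 123, 129 and 131 CPM in ZnSO4 and did not pass (adjusted p = 0.599). FTH1, the ferritin heavy chain, did not pass either (log2FC −0.27 ± 0.075, adjusted p = 0.0704), though it passed with no filter (adjusted p = 0.0022), with only the 9 libraries of 1 h (0.00762), with only the groups compared (0.0222) and without replicate 2 of GSK-J4 (0.0261). A gene on the other strand covers 62.4% of its exon bases in GENCODE 29.

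Immediate early genes, which respond within minutes to growth and stress signals, were also lower in part. Of 21 tested 7 were lower in GSK-J4 and none was higher, and the list median was −0.301. JUN (ENSG00000177606), a subunit of AP-1, had 37.9, 37.3 and 36.8 CPM in GSK-J4, 53.9, 63.9 and 61.6 CPM in ZnSO4 and 31.9, 32.9 and 33.1 CPM in DMSO (log2FC −0.69 ± 0.087, adjusted p = 6.55e-08). IER5 had 64.003, 66.2 and 65.7 CPM in GSK-J4 against 85.4, 95.7 and 104 CPM in ZnSO4 (log2FC −0.55 ± 0.080, adjusted p = 2.16e-06). ZFP36, an mRNA decay factor, and BTG2, an antiproliferative gene also counted among p53 targets, were lower by the same test, with log2FC −0.50 ± 0.090 and −0.41 ± 0.054. Each of these 4 was called in every setting.

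The other immediate early calls did not hold in every setting. FOS, the partner of JUN in AP-1, had 1.80, 5.41 and 6.22 CPM in GSK-J4 against 7.64, 12.2 and 12.51 CPM in ZnSO4 (log2FC −1.28 ± 0.29, adjusted p = 0.00833). Its call was lost without replicate 3 of ZnSO4 (−1.13, adjusted p = 0.225), without replicate 1 of GSK-J4 (−0.94, adjusted p = 0.239) and with DESeq2 (adjusted p = 0.0805). EGR1, at 2.52, 2.01 and 3.44 CPM in GSK-J4 and 3.35, 11.4 and 5.79 CPM in ZnSO4, overlapped between the groups. Its log2FC was −1.33 ± 0.31, and −0.89 (adjusted p = 0.323) without replicate 2 of ZnSO4, the library with the highest value. Its call was also lost without replicate 1 (−1.29, adjusted p = 0.092) or replicate 2 (−1.15, adjusted p = 0.186) of GSK-J4. JUNB was called with log2FC −0.28 ± 0.073, and in 7 of the 14 other settings. Its call was lost with RLE factors, with library totals, with no filter, and without replicate 2 or 3 of ZnSO4 or replicate 1 or 3 of GSK-J4. Without replicate 1 of GSK-J4, 4 of the 7 list members were called. Outside the list, LINC03047, a noncoding RNA among the 12 largest falls, had 1.44, 2.16 and 2.29 CPM in GSK-J4 against 3.91, 4.79 and 5.79 CPM in ZnSO4 (log2FC −1.32 ± 0.28, adjusted p = 0.00405), and lost its call without replicate 3 of ZnSO4 (−1.13, adjusted p = 0.196) or replicate 1 of GSK-J4 (−1.16, adjusted p = 0.0825). ATF3, at 8.45, 8.96 and 8.35 CPM in GSK-J4 and 10.997, 15.3 and 12.7 CPM in ZnSO4, did not pass (log2FC −0.59 ± 0.17, adjusted p = 0.0984).

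Among 12 tested genes of the feedback on ERK signalling, 3 dual-specificity phosphatases were lower in GSK-J4, and the list median was −0.162. DUSP2 had 21.9, 27.2 and 24.2 CPM in GSK-J4 against 37.5, 35.1 and 44.7 CPM in ZnSO4 (log2FC −0.70 ± 0.11, adjusted p = 2.54e-05). DUSP1 (−0.75 ± 0.17) lost its call without replicate 3 of ZnSO4 (−0.69, adjusted p = 0.127) or replicate 3 of GSK-J4 (−0.65, adjusted p = 0.133), and DUSP5 (−0.34 ± 0.074) without replicate 1 of GSK-J4 (−0.31, adjusted p = 0.0825). DUSP6, the phosphatase of ERK in the cytoplasm, did not pass in the direct comparison (log2FC −0.31 ± 0.089, adjusted p = 0.107), and was lower than DMSO both with GSK-J4 (log2FC −0.62 ± 0.086, adjusted p = 2.78e-06) and with ZnSO4 (log2FC −0.31 ± 0.081, adjusted p = 0.047). The ZnSO4 call was lost without replicate 1 (−0.21, adjusted p = 0.839) or replicate 3 (−0.34, adjusted p = 0.0758) of DMSO and without each ZnSO4 library in turn (adjusted p = 0.129 to 0.215). A gene on the other strand covers 40.5% of its exon bases in GENCODE 29, and the library kit named in the labels does not mark strand.

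DDIT4 (ENSG00000168209), which restrains mTORC1 under stress and is a target of both ATF4 and the hypoxia response, stood at 77.8, 73.3 and 75.7 CPM in GSK-J4, 159.7, 169.5 and 205 CPM in ZnSO4 and 76.003, 43.3 and 46.04 CPM in DMSO (log2FC −1.25 ± 0.13, adjusted p = 3.91e-11). An antisense gene covers 41.2% of its exon bases in GENCODE 29, and reads of the strands cannot be told apart. It was the only call among 32 ATF4 targets (median −0.021), and 1 of 2 among 16 hypoxia genes (median −0.057). The second was ADM, the adrenomedullin precursor, with 76.9, 75.9 and 84.99 CPM in GSK-J4 against 109, 115 and 114 CPM in ZnSO4 (log2FC −0.51 ± 0.067, adjusted p = 2.1e-07). ATF4 itself had 422, 409 and 425 CPM in GSK-J4 and 412, 408 and 444 CPM in ZnSO4, with adjusted p = 0.969. CHAC1, a glutathione-degrading enzyme induced through ATF4, and DDIT3, the factor CHOP, did not pass either (log2FC 0.20 ± 0.19 and 0.15 ± 0.17), and genes on the other strand cover 31.6% of the exon bases of DDIT3.

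**Figure D3:**
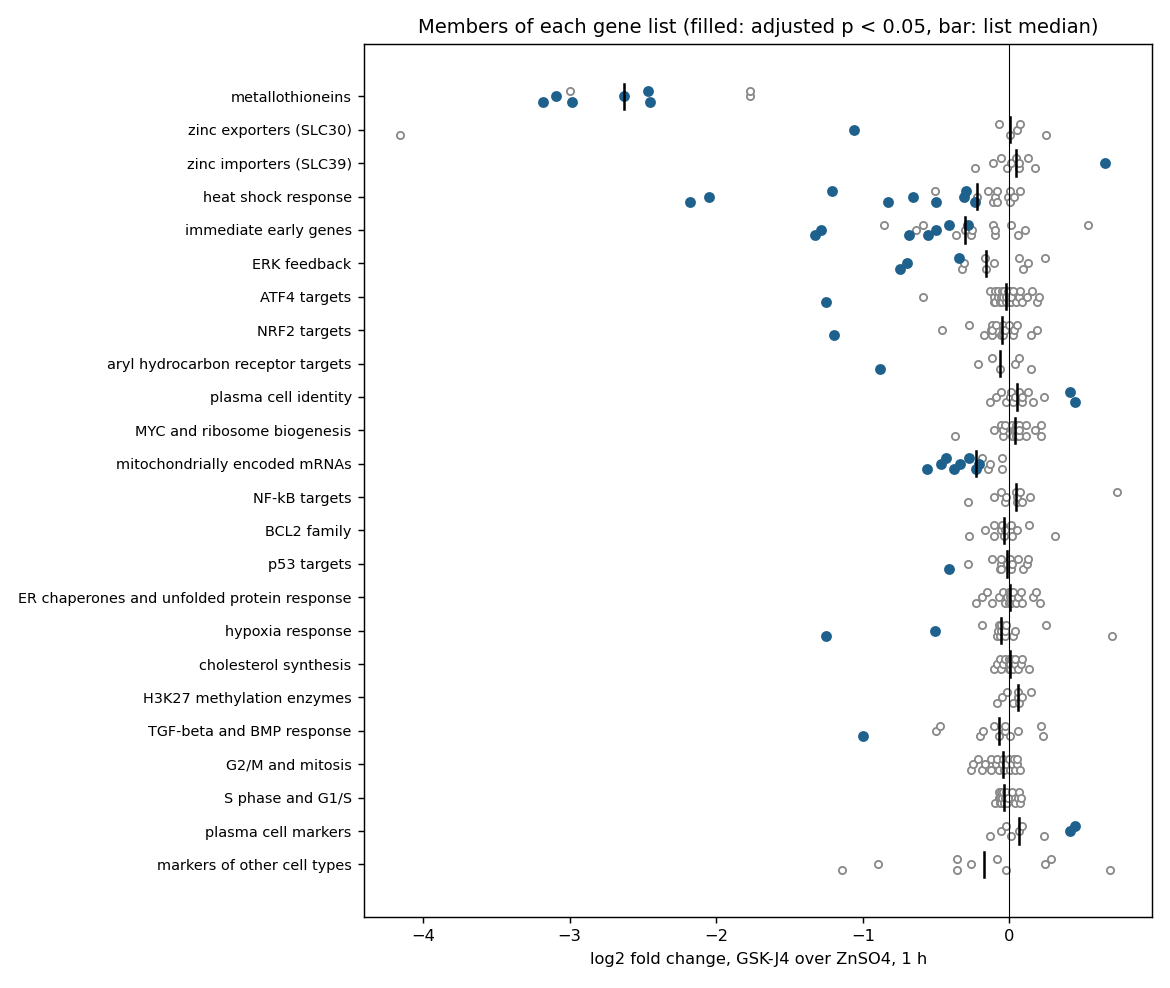
Log2 fold change of GSK-J4 over ZnSO4 at 1 h for each tested member of the 24 gene lists, with filled points at adjusted p under 0.05 and a bar at the list median. Metallothioneins lie far to the left as a group, mitochondrially encoded mRNAs lie slightly left of zero without exception, and in most other lists 1 or a few genes stand apart from members around zero. The leftmost open point is SLC30A2, which had no counts in GSK-J4 and so carries no exact fold.

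Zinc finger genes appeared often among the lower calls, a group picked out only after the values were seen. Of 492 tested genes whose symbol is ZNF, ZBTB, ZSCAN or ZKSCAN with a number, 12 were lower in GSK-J4, 2.44% beside 0.526% of all genes, and 1, ZNF217, was higher. These 12 make up 15.8% of the 76 lower genes, and the median over the 492 was −0.056. Most genes with such symbols encode DNA-binding proteins of the C2H2 class, but the symbol alone chose them. ZNF16 had 19.4, 17.002 and 15.4 CPM in GSK-J4, 29.1, 37.1 and 34.3 CPM in ZnSO4 and 15.3, 15.8 and 17.99 CPM in DMSO (log2FC −0.96 ± 0.12, adjusted p = 3.12e-08). ZNF845 had 24.1, 27.7 and 20.1 CPM in GSK-J4 against 35.8, 38.2 and 37.4 CPM in ZnSO4, and ZNF441 had 35.6, 41.3 and 36.03 CPM against 51.4, 53.1 and 59.5 CPM. ZNF616, ZNF34, ZNF92 and ZBTB2 were also called in every setting, with log2FC between −0.70 and −0.42. In 9 of the 12 ZnSO4 was also called above DMSO. The remaining 5, ZNF330, ZNF408, ZNF436, ZNF574 and ZNF581, lost their calls without 1 or another of the 6 libraries, and 8 of the 492 were called lower without replicate 3 of ZnSO4, without replicate 2 of GSK-J4 or without its replicate 3.

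Mitochondrially encoded mRNAs, the 13 messages of the respiratory chain made inside the organelle, were all below zero in log2FC, with a median of −0.226, and 8 were called lower in GSK-J4. MT-CO3 (ENSG00000198938), a subunit of cytochrome c oxidase, stood at 2258, 2334 and 2130.5 CPM in GSK-J4, 3151, 2956 and 3195 CPM in ZnSO4 and 2820.1, 2819 and 2900.4 CPM in DMSO (log2FC −0.47 ± 0.055, adjusted p = 6.33e-09). Here GSK-J4 lay below both other groups. It was lower than DMSO as well (log2FC −0.34 ± 0.054, adjusted p = 5.94e-05), while ZnSO4 did not differ from DMSO by the test (0.12 ± 0.054, adjusted p = 0.691). MT-ND3, a complex I subunit, had 387, 401 and 379.6 CPM in GSK-J4 against 539.6, 527 and 649 CPM in ZnSO4 (log2FC −0.56 ± 0.074, adjusted p = 2.36e-07), and MT-ATP6, of the ATP synthase, had a log2FC of −0.38 ± 0.047. MT-ND2 and MT-CO2 were also called in every setting (−0.43 ± 0.062 and −0.27 ± 0.052), whereas MT-ATP8, MT-CO1 and MT-ND1 were not. The list had 5 calls without replicate 1 of ZnSO4 and 5 without replicate 3 of GSK-J4. Genes of the mitochondrial genome took 3.185 to 3.382% of counts in GSK-J4, 3.778 to 3.902% in ZnSO4 and 3.566 to 3.682% in DMSO. MTCO3P12, a nuclear copy of MT-CO3, differed by nearly as much (−0.43 ± 0.067), and reads of the copies may have been mixed.

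TIPARP (ENSG00000163659), an ADP-ribosyltransferase and a standard target of the aryl hydrocarbon receptor, was also lowest in GSK-J4. It stood at 68.3, 84.2 and 78.6 CPM in GSK-J4, 151, 137 and 140.2 CPM in ZnSO4 and 138, 133 and 133 CPM in DMSO. GSK-J4 was lower than ZnSO4 (log2FC −0.88 ± 0.064, adjusted p = 9.17e-17) and lower than DMSO (log2FC −0.80 ± 0.064, adjusted p = 1.08e-14), and ZnSO4 and DMSO overlapped. None of the other 6 tested entries of that list, AHR itself included, was called, and its median was −0.067. ENSG00000117289, an identifier without a symbol in the name tables, was lowest in GSK-J4 too, with 12.6, 12.98 and 15.6 CPM in GSK-J4, 23.3, 34.1 and 31.4 CPM in ZnSO4 and 34.99, 33.1 and 39.4 CPM in DMSO (log2FC −1.12 ± 0.15, adjusted p = 4.88e-07). It is named here because it was 1 of the few calls in which GSK-J4 also fell below DMSO, and was chosen after its values were seen.

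The 20 genes higher in GSK-J4 included 2 regulators of the plasma cell state, IRF4 and PRDM1. IRF4 (ENSG00000137265), on which myeloma cells depend, stood at 786, 784 and 775 CPM in GSK-J4, 606, 587 and 533 CPM in ZnSO4 and 933, 845 and 827 CPM in DMSO (log2FC 0.44 ± 0.061, adjusted p = 4.88e-07). PRDM1, which encodes BLIMP1, stood at 174, 183 and 199 CPM in GSK-J4, 153, 127 and 139 CPM in ZnSO4 and 207, 185 and 185 CPM in DMSO (log2FC 0.41 ± 0.066, adjusted p = 2.54e-05). For both, ZnSO4 was the low group. The log2FC of ZnSO4 over DMSO was −0.60 ± 0.060 for IRF4 and −0.46 ± 0.065 for PRDM1 (adjusted p = 3.49e-11 and 1.27e-06), while GSK-J4 did not pass against DMSO (−0.15 ± 0.060 and −0.052 ± 0.064). The other 14 of 16 tested plasma cell identity genes were not called, and the median of the list was 0.052. The shorter list of 9 plasma cell markers holds the same 2 calls and had a median of 0.062.

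RGS1, which dampens G protein signalling, and SLC39A10 had the largest called rises among genes with a symbol. RGS1 (ENSG00000090104) stood at 135, 136 and 138 CPM in GSK-J4, 90.2, 84.8 and 86.2 CPM in ZnSO4 and 154, 128 and 149 CPM in DMSO (log2FC 0.65 ± 0.091, adjusted p = 8.84e-07). The long noncoding RNA LINC01480 had 89.7, 98.5 and 102 CPM in GSK-J4 against 63.7, 64.3 and 66.9 CPM in ZnSO4 (log2FC 0.57 ± 0.079, adjusted p = 5.84e-07), and TRIB1, a pseudokinase, had 106, 117 and 106 CPM against 77.2, 81.8 and 75.1 CPM (log2FC 0.50 ± 0.084, adjusted p = 5.93e-05). In each the GSK-J4 libraries lay in or near the DMSO range. ZNF217 (0.38 ± 0.074) and MAK16, a ribosome biogenesis factor (0.41 ± 0.075), were also called in every setting. PIM1, a kinase, and BHLHE22, a transcription factor, were called with all libraries (0.36 ± 0.081 and 0.38 ± 0.079). PIM1 was not called without replicate 1 (0.31, adjusted p = 0.077) or replicate 3 of ZnSO4 (0.36, adjusted p = 0.0703) or replicate 2 of GSK-J4 (0.33, adjusted p = 0.0859), and BHLHE22 was not called without replicate 1 of ZnSO4 (0.31, adjusted p = 0.0584).

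Weaker still were MTRF1L, a mitochondrial release factor (0.48 ± 0.12), and JMJD1C, a member of the JmjC family to which the KDM6 enzymes also belong (0.42 ± 0.10). Without replicate 2 of ZnSO4, replicate 3 of ZnSO4 or replicate 2 of GSK-J4 the adjusted p of MTRF1L was 0.143, 0.203 and 0.214, and that of JMJD1C was 0.0692, 0.125 and 0.186, with log2FC between 0.35 and 0.47. MTRF1L also missed the threshold without replicate 1 of GSK-J4 (0.50, adjusted p = 0.0526), and an antisense gene covers 34.8% of its exon bases. The largest called rise belonged to ENSG00000006075, an identifier without a symbol in the name tables. It stood at 14.2, 16.2 and 18.3 CPM in GSK-J4 against 6.15, 7.81 and 9.06 CPM in ZnSO4 (log2FC 1.03 ± 0.16, adjusted p = 6.1e-06). The lists were matched by symbol, so this identifier could not be placed in any of them. It is named here because it is the 1 called gene higher by 2-fold, a choice made after the values were seen. The number of higher genes was 12 without replicate 3 of ZnSO4, the largest library, against 20 with it.

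The enzymes that set and remove H3K27 methylation did not differ by the test. None of 9 tested was called, and the list median was 0.059. KDM6A had 30.2, 28.6 and 35.2 CPM in GSK-J4 and 30.6, 35.5 and 24.8 CPM in ZnSO4, and KDM6B had 24.3, 19.5 and 21.9 CPM in GSK-J4 and 21.8, 20.6 and 17.6 CPM in ZnSO4. The groups overlapped for both. MYC had 1242, 1335 and 1276 CPM in GSK-J4 and 1161, 1136 and 1122 CPM in ZnSO4 (log2FC 0.17 ± 0.088, adjusted p = 0.545). No tested member was called among 22 MYC and ribosome biogenesis genes (median 0.037), 12 NF-kB targets (0.046) or 13 BCL2 family genes (−0.035). The same held for 22 ER chaperones and unfolded protein response genes (0.006), 19 cholesterol synthesis genes (0.002), 22 G2/M genes (−0.046) and 20 S phase genes (−0.034). The NF-kB entries CCL3 and CCL4 were not matched by symbol and may lie among the identifiers without a symbol. These identifiers include ENSG00000006075, which was called higher. That list is therefore incomplete, and its lack of calls holds only for the 12 matched members. Of 15 p53 targets BTG2 alone was called (median −0.019), and of 13 TGF-beta and BMP response genes ID1 alone (median −0.068). ID1, an inhibitor of bHLH factors, had 5.75, 4.95 and 3.77 CPM in GSK-J4 against 8.76, 9.76 and 10.1 CPM in ZnSO4 (log2FC −1.001 ± 0.20, adjusted p = 0.00149), and its call was lost without replicate 3 of GSK-J4 (−0.85, adjusted p = 0.0599).

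Each compound's own values against DMSO place most of the 96 genes. Against DMSO 0.104% of all genes were called in GSK-J4 (15 genes, 5 higher and 10 lower) and 0.678% in ZnSO4 (98 genes, 72 higher and 26 lower). The comparisons share the DMSO libraries with each other and the treated libraries with the direct one, so these counts describe the genes and are no separate test. Of the 76 genes lower in GSK-J4 than in ZnSO4, 52 were called above DMSO in ZnSO4, and 4 of these, MT1G, MT1X, MT2A and SLC30A1, were also called above DMSO in GSK-J4. Without replicate 1 of DMSO, 6 of the 76 were called above DMSO in GSK-J4, and 3 without its replicate 2 or 3. In 7 others of the 76 GSK-J4 was called below DMSO and ZnSO4 was not called. These 7 were TIPARP, MT-CO3, MT-ND2, MT-ND3, MT-ATP6, MTCO3P12 and ENSG00000117289, and 4 were called without replicate 3 of DMSO, without replicate 1 of GSK-J4 or without its replicate 3. The last 17 were called on neither side. Of the 20 higher genes 12 were called below DMSO in ZnSO4, none was called above DMSO in GSK-J4, and 8 were called on neither side.

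**Figure D4:**
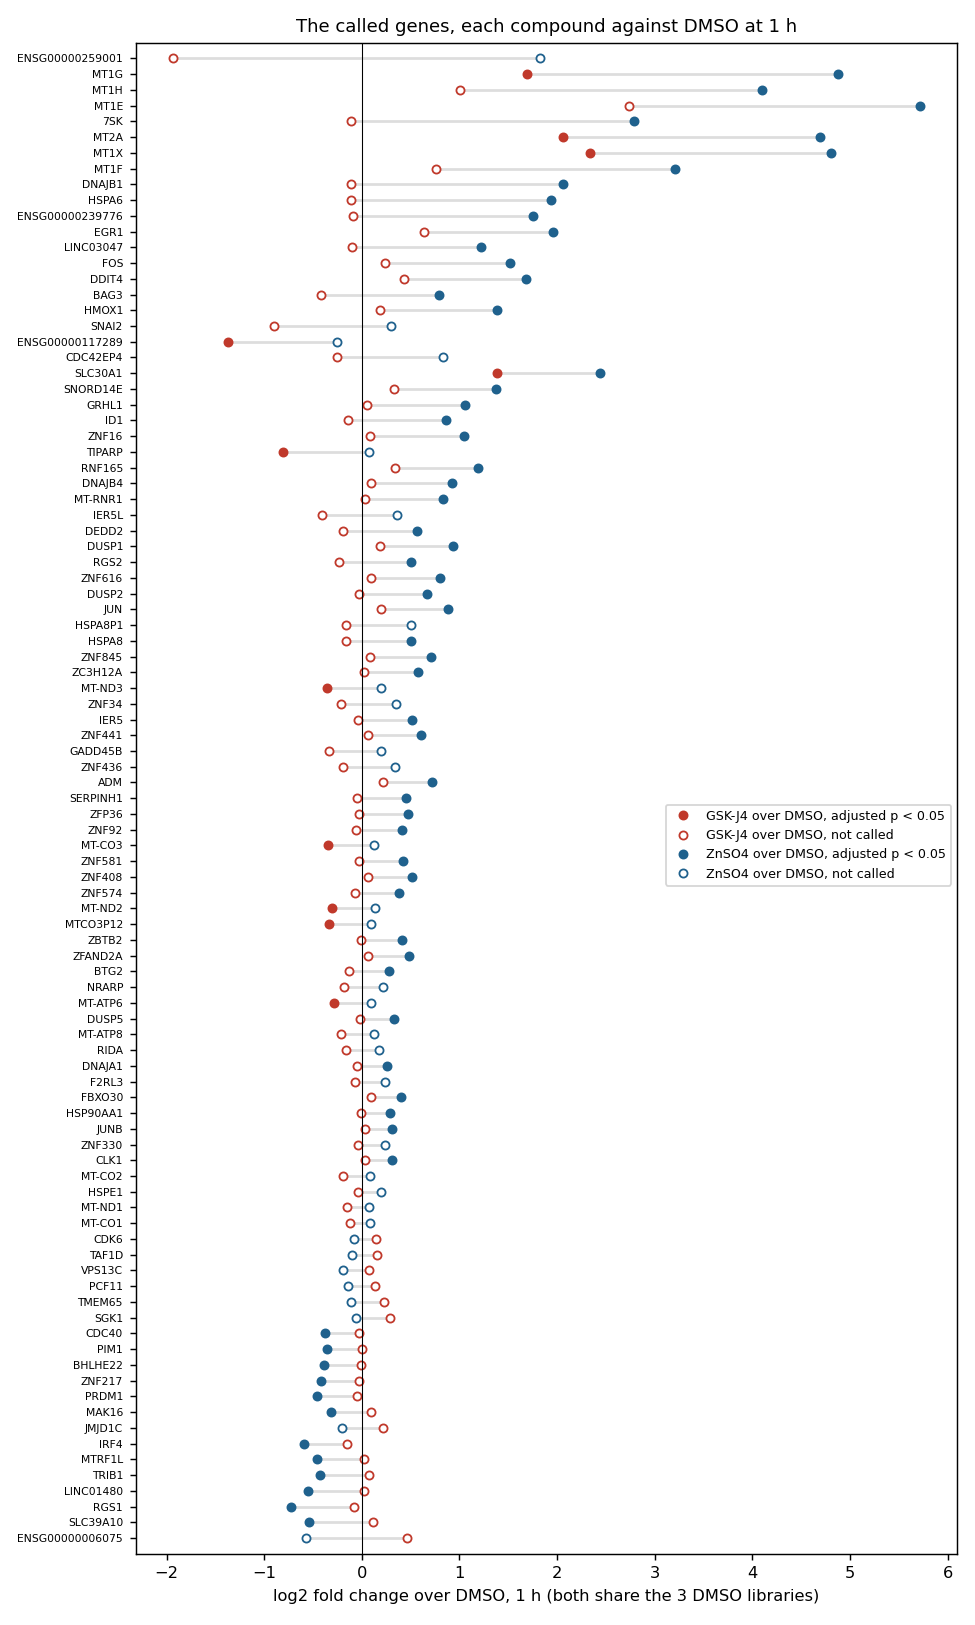
Log2 fold change over DMSO at 1 h for called genes (1 is not shown) in order of their direct difference, in GSK-J4 (red) and ZnSO4 (blue), with filled points at adjusted p under 0.05. Filled blue points lie far right for metallothioneins such as MT1X and MT2A. Of 21 tested heat shock genes 8 were called above DMSO in ZnSO4. Among them the call of BAG3 (0.79) was lost without replicate 2 or 3 of DMSO or replicate 3 of ZnSO4. Red points are filled for MT1G, MT2A, MT1X and SLC30A1 on the right and for TIPARP and mitochondrial genes on the left. DMSO had at most 0.360 CPM of MT1E, so its points are not exact.

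By 3 h the same comparison, made on other libraries, called 3.99% of genes higher in GSK-J4 and 6.12% lower. Of the 76 genes lower at 1 h, 66 were lower again at 3 h, 10 were not called and none was higher. Of the 20 genes higher at 1 h, 8 were higher again and 12 were not called. The change of the difference between the times was tested directly, and it passed for 2.23% of all genes. The 76 and 20 genes were chosen by their 1 h difference, which enters this change, so their shares are not comparable with that one. Among the 76 lower genes the change passed for 30, of which 22 had moved further apart by 3 h and 8 had moved closer. Among the 20 higher genes it passed for 4, of which 1 had moved further apart and 3 closer. That count of 4 was 1 without any 1 of these libraries: replicate 2 of GSK-J4 at 1 h, replicate 3 of ZnSO4 at 3 h, or replicate 1 or 2 of GSK-J4 at 3 h. It was 2 without replicate 3 of ZnSO4 at 1 h.

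MT1X, MT1G, MT2A and MT1H drew closer. The log2FC of MT1X was −1.14 ± 0.076 at 3 h after −2.46 ± 0.10 at 1 h, a change of 1.32 ± 0.12 (adjusted p = 2.99e-12), and that of MT1G was −1.29 ± 0.13, a change of 1.89 ± 0.24 (adjusted p = 3.21e-08). MT1X stood at 568, 602 and 559 CPM in GSK-J4 against 1148, 1367 and 1300.1 CPM in ZnSO4 at 3 h. GSK-J4 had come nearer to ZnSO4 without reaching it. MT2A and MT1H changed by 1.30 ± 0.18 and 2.08 ± 0.26 (adjusted p = 5.12e-07 and 3.78e-08), while MT1E, at −2.46 ± 0.12 at 3 h, showed no change that passed (adjusted p = 0.736). DDIT4 was no longer called at 3 h, with 351, 334 and 324 CPM in GSK-J4 and 335, 359 and 380.4 CPM in ZnSO4 at 3 h (−0.093 ± 0.10, adjusted p = 0.679), a change of 1.16 ± 0.16 (adjusted p = 6.68e-07). SLC30A1 narrowed by 0.36 ± 0.091 (adjusted p = 0.0143), and this was lost without replicate 1 (0.32, adjusted p = 0.0701) or replicate 3 (0.33, adjusted p = 0.0671) of GSK-J4 at 1 h, and without replicate 1 of ZnSO4 (0.29, adjusted p = 0.0863) or of GSK-J4 (0.33, adjusted p = 0.0621) at 3 h.

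HMOX1 and several chaperone genes moved further apart. HMOX1 stood at 117, 187 and 163 CPM in GSK-J4 against 2145, 2544 and 2490.1 CPM in ZnSO4 at 3 h, and its log2FC changed by −2.74 ± 0.16 between the times (adjusted p = 6.47e-21). HSPA6 changed by −3.01 ± 0.50, BAG3 by −1.74 ± 0.24 and HSPA8 by −0.74 ± 0.13 (adjusted p = 3.55e-05, 4.67e-07 and 7.55e-05). DNAJB1, far apart at 1 h already, was at −2.57 ± 0.15 at 3 h, with no change that passed (adjusted p = 0.541). TIPARP, IRF4 and LINC01480 kept their direction at 3 h (−1.10 ± 0.062, 0.71 ± 0.060 and 0.48 ± 0.075), and none of the 3 showed a change that passed. RGS1 was no longer called at 3 h (0.14 ± 0.081, adjusted p = 0.321), a change of −0.51 ± 0.12 (adjusted p = 0.00885).

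Levels at the later times are given as descriptions. At 6 h MT1X stood at 761, 756 and 762 CPM in GSK-J4 and 1150.5, 1419 and 1291 CPM in ZnSO4, and at 24 h at 472, 510.5 and 552 CPM in GSK-J4 and 1187, 1320.3 and 1513 CPM in ZnSO4. DMSO stayed between 6.30 and 19.7 CPM from 3 to 24 h. SLC30A1 came close between the compounds at 6 h, with 228, 230.3 and 239.6 CPM in GSK-J4 and 249, 265 and 293 CPM in ZnSO4, and was apart again at 24 h, with 204, 198 and 195 CPM in GSK-J4 and 561, 599 and 627 CPM in ZnSO4. DNAJB1 in ZnSO4 was highest at 3 h (1249, 1724 and 1749 CPM). At 6 h it stood at 140.1, 163 and 168 CPM in GSK-J4, 167, 197 and 192 CPM in ZnSO4 and 335, 341 and 129 CPM in DMSO, so the compounds had come close and the DMSO libraries disagreed among themselves. MT-CO3 in GSK-J4 stayed below both other groups at each time, with 1549, 1465 and 1416 CPM in GSK-J4, 3255, 3708 and 3333 CPM in ZnSO4 and 2879, 2896 and 2774 CPM in DMSO at 6 h. TIPARP in GSK-J4 also stayed lowest, and at 24 h it had 239.6, 242 and 251 CPM in GSK-J4, 338, 332 and 315 CPM in ZnSO4 and 325, 323 and 318 CPM in DMSO.

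**Figure D5:**
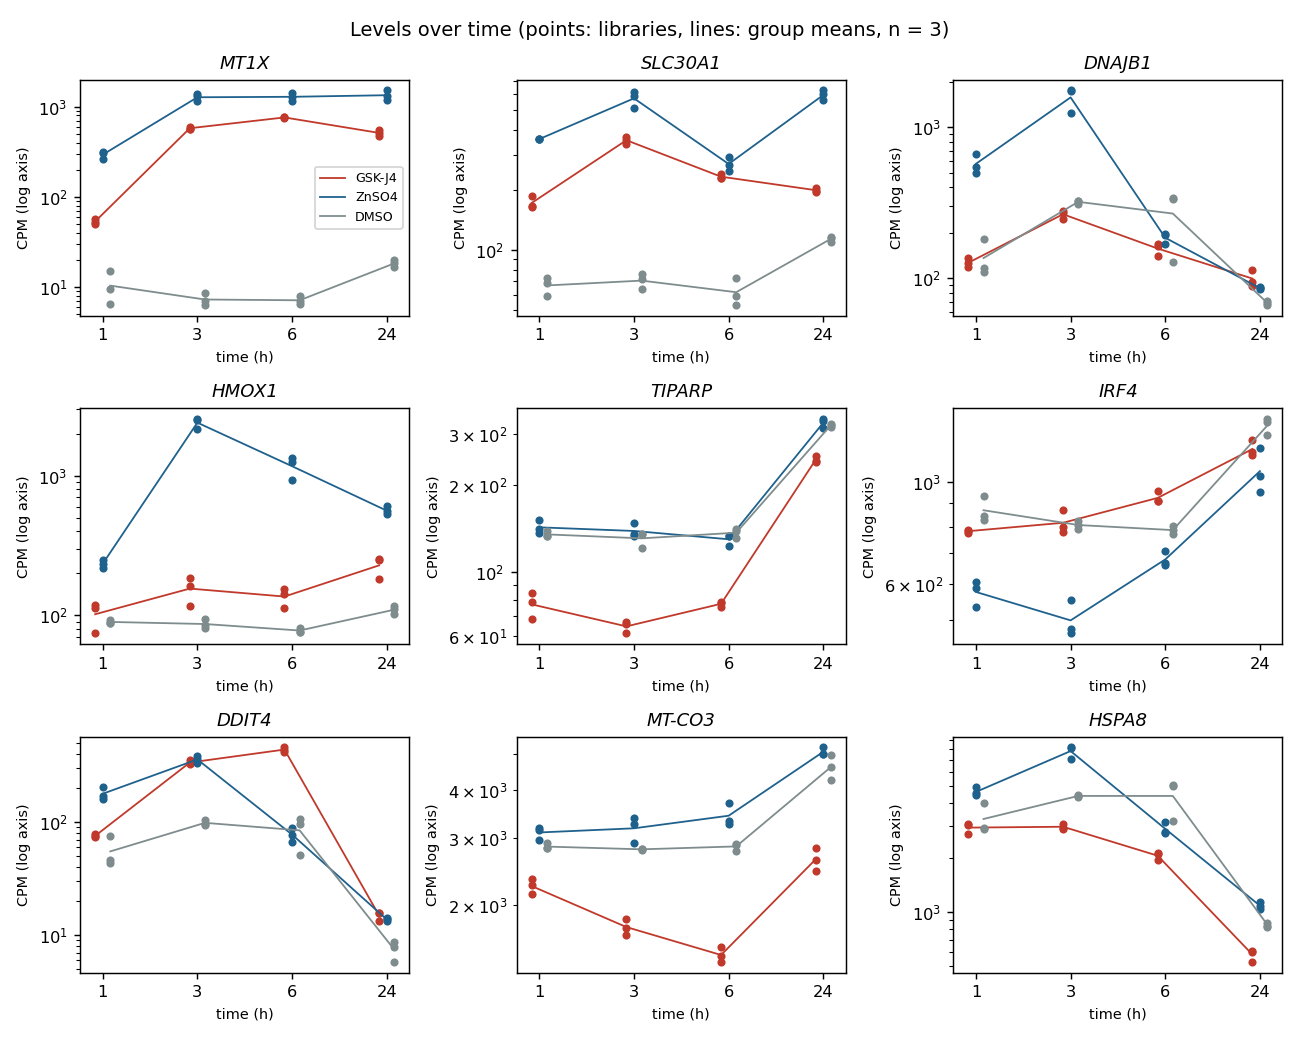
CPM on a log axis of 9 genes at 1, 3, 6 and 24 h in GSK-J4 (red), ZnSO4 (blue) and DMSO (grey), with each library as a point and lines through the group means, n = 3. MT1X in GSK-J4 stays between ZnSO4 and DMSO at all 4 times, HMOX1 and DNAJB1 in ZnSO4 are highest at 3 h, and MT-CO3 and TIPARP in GSK-J4 lie lowest throughout.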

How the data were processed

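RNA-seq libraries were made from Trizol extracts of JJN3 cells with the NEBNext Ultra RNA kit, per the labels' protocols, and that kit does not mark strand. The time of 1 h comes from each library's own label, and the protocol text on treatment names only the later times. Per the submitters' processing notes reads were aligned with HISAT2 2.1.0 to hg19. The authors deposited raw counts per gene for 39 libraries, and nothing is stated on how they were counted, with which annotation or by strand. These deposited counts were tested unchanged. Of 57773 identifiers, 52338 were given a symbol from the name table or GENCODE 29.

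Counts were filtered with edgeR's filterByExpr (minimum count 10) and scaled by TMM. A quasi-likelihood model (edgeR 4.0.16, limma 3.58.1, R 4.3.3) with 1 coefficient for each of 13 groups of 3 libraries gave all contrasts, with 26 residual degrees of freedom, and p-values were adjusted by the Benjamini-Hochberg method over the 14460 genes tested at a threshold of 0.05. Standard errors are the log2 fold change divided by the root of F. Libraries held 4347745 to 10695671 counts. No 2 replicates of the 6 libraries were as alike as sampling noise allows (chi-square per gene 1.43 to 3.30). On simulated counts with 14297 genes the same test called 76.1% of 67 genes changed 1.5-fold and 97% of 67 changed 2-fold, with 7 false calls among 189. Only genes with a mean above 2 CPM were changed there, so these shares do not cover lower genes. The simulation let no library stand apart, and more genes passed in it than the 96 of the data. The shares may therefore be too high for the data.

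Alternatives were library totals or RLE factors for scaling, a CPM filter or none, fewer groups in the model, DESeq2 1.42.0, and leaving out each library. The members and lists were chosen with earlier results of these data known. Named genes are the 12 largest rises and falls with a symbol, an average log2 CPM of at least 1 and no overlap between libraries, a fixed set of response genes, and up to 3 members of each list with the smallest p. Zinc finger genes, the 2 identifiers without a symbol and the further members of lists named here were chosen after their values were seen. The values of 1 called gene are not reported here.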

Additional observations from a re-analysis of the deposited data

Results flagged for a closer look

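The difference between GSK-J4 and ZnSO4 itself changed between 1 and 3 h in 31 of the 94 named genes, by a test of the change (edgeR, adjusted p under 0.05). Over all genes tested 2.23% passed. The named genes were chosen in part by their 1 h difference, which enters this change, so the shares are not comparable. Values are the log2 fold change of GSK-J4 over ZnSO4 at 3 h minus that at 1 h. In 20 genes it moved down. Among chaperones it moved by −3.01 for HSPA6, −1.74 for BAG3, −1.30 for HSPH1 and −0.74 for HSPA8. Among antioxidant genes it moved by −2.74 for HMOX1, −0.89 for GCLM and −0.72 for FTH1. BMF, a BH3-only gene, moved by −1.31, IER5 by −0.83, DUSP5 by −0.52 and JUN by −0.45. MXD1 and MXI1, which encode partners of MAX, moved by −0.72 and −0.43, and the demethylase genes KDM3A and JMJD1C by −0.56 and −0.47. RGS1 moved by −0.51, PRDM1 by −0.34 and MCL1 by −0.25, and the mitochondrial genes MT-CO3 and MT-ATP6 by −0.39 and −0.25.

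In 11 genes it moved up. The metallothioneins MT1H, MT1G, MT1X and MT2A moved by 2.08, 1.89, 1.32 and 1.30, and SLC30A1 by 0.36. CHAC1, DDIT3 and DDIT4 moved by 1.47, 1.19 and 1.16. HERPUD1 and SEL1L, of ER-associated degradation, moved by 0.55 and 0.32, and MEF2C by 0.49. The calls of PRDM1, MCL1, SLC30A1, JMJD1C, JUN and MT-ATP6 were fragile, and leaving out any 1 of several libraries ended each of them.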

How the results depend on the processing

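The number of genes called between GSK-J4 and ZnSO4 at 1 h was 96, and 71 to 108 over the 14 alternatives, with none of those 96 genes changing sign. With library totals in place of TMM, 31 genes were higher in place of 20 and 69.3% of calls were lower in place of 79.2%. Leaving out each library gave 12 to 25 higher genes, 12 without replicate 3 of ZnSO4, and 201 to 319 genes whose difference changed between 1 and 3 h, 201 without replicate 3 of ZnSO4 at 3 h, against 322 with all. Causes were not tested. The count against DMSO ran from 10 to 22 for GSK-J4 and from 66 to 108 for ZnSO4. Of the 52 lower genes with ZnSO4 above DMSO, 40 were called without replicate 2 or 3 of DMSO or replicate 3 of ZnSO4, and of the 12 higher genes with ZnSO4 below DMSO 8 were called without replicate 1 of DMSO. No paired analysis was possible because the labels give no shared replicate numbers. Genes changed by 1.5-fold or less may be missed at 3 libraries a group, and genes at low counts may be missed at larger changes.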
